A study of Mus musculus with 12 samples.

Results

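The 42 genes described here carry the amino acid supply of the cell and the branch of the integrated stress response that steers it. They were picked by name as rows of a table of 14219 genes, and all 42 were found there. They fall into 6 genes of the stress response core, 9 of amino acid synthesis, 9 of amino acid transport and 18 cytosolic tRNA synthetases. RNA was sequenced from plasma cells of the bone marrow of BLTcre.mcl1fl/+ mice on a C57BL/6 background, in which tamoxifen turned on a human CD4 reporter gene. The 4 groups of 3 libraries were human CD4+ cells (marked below) and human CD4- cells (unmarked), each sorted 270 days and 60 days after tamoxifen. Every library came from mice with 1 floxed Mcl1 allele, so that no group was free of it. The labels do not give the promoter that drives the Cre, the age of the mice or whether the allele was recombined in marked cells. Mcl1, an anti-apoptotic gene, ranged between 342 and 513 CPM in marked libraries and between 483 and 590 CPM in unmarked ones. CPM are read counts divided by the library's total over the table and put on a common scale. The labels do not say that the libraries of a group came from separate mice, so p-values measure only the spread between these samples.

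Plasma cells secrete antibody at a high rate and draw heavily on amino acids. When amino acids run short or proteins misfold, kinases phosphorylate the initiation factor eIF2alpha, which slows translation of most messages and raises that of Atf4. The transcription factor ATF4 then drives genes that take up amino acids, make them and load them onto tRNA, and with CHOP (Ddit3) it switches on feedback genes such as Trib3, Chac1 and Ppp1r15a. Since ATF4 is controlled in large part through translation, its transcript level says little of its protein.

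The libraries held 7449468 to 15943547 reads on the 14219 genes of the table, which is not the whole sequencing depth. Transcripts that mark plasma cells were present throughout, with Sdc1 between 1748 and 2342 CPM. Marked library 2 of day 270 stood apart, with 16.1% of its reads on Rn18s-rs5, a feature resembling ribosomal RNA, and 7.90% on Jchain, against 31.3% on Jchain in marked library 1 of day 60. Marked library 2 of day 60 came next, with 3.17% on Rn18s-rs5, against at most 1.33% in the remaining libraries. The gene Lars2 rose alongside, with 4.91% of reads in marked library 2 of day 270 and 3.41% in that of day 60. Summed with Lars2 and further features of this kind, the shares were 21.6% and 6.78%, against at most 2.16% in the remaining libraries. Marked library 2 of day 270 was the lowest of the 12 libraries for 22 of the 42 genes, and for 36.5% of all genes tested. After TMM scaling, which sets the bulk of genes level between libraries, it was the lowest for 11 of the 42 and for 26.9% of all genes. The median log2 fold change of all genes was -0.06 with TMM scaling, against -0.18 by total reads, in marked minus unmarked cells (days averaged), and -0.04 against 0.07 between days. Summed transcripts of dividing cells (8 genes, 5 of them called lower in marked cells) were 28.0 to 73.0 CPM in marked libraries and 131 to 179 CPM in unmarked ones. Summed erythroid transcripts (7 genes, 4 of them called higher in marked cells) were 107 to 800 CPM in marked libraries and 29.6 to 164 CPM in unmarked ones. Neutrophil transcripts (8 genes) summed to 1.29 to 775 CPM in marked and 21.7 to 286 CPM in unmarked libraries, and those of monocytes and macrophages (8 genes) to 130 to 589 CPM in marked and 101 to 320 CPM in unmarked ones. B cell transcripts (7 genes) summed to 244 to 381 CPM in marked and 296 to 421 CPM in unmarked libraries, and those of T and NK cells (3 of 7 listed genes used, with Cd3d at 0 in 7 libraries) to 1.97 to 6.82 CPM in marked and 3.95 to 9.04 CPM in unmarked ones. Their part in the results below was not tested, and in bulk RNA fewer cells of a type and less RNA per cell cannot be told apart.

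One of the 42 stood far above the rest in level. Slc3a2, the heavy chain that pairs with several amino acid carriers and brings them to the membrane, averaged 2390 CPM per kb of exon and took rank 15 of 12669 genes with a length. Atf4 averaged 163 CPM per kb (rank 285), the carrier Slc7a5, which imports large neutral amino acids, 144 CPM per kb and the valyl-tRNA synthetase Vars 98.7 CPM per kb. Asparagine synthetase Asns followed with 96.2 CPM per kb. At the other end were Slc7a11, the cystine carrier of the same heavy chain, with 0.0974 CPM per kb, and the cytosolic serine hydroxymethyltransferase Shmt1 with 0.784. Shmt1 was drawn from 0 to 79 reads and Slc7a11 from 0 to 73 reads per library, so their values are set by few reads. A library at 0 reads could still hold up to 0.403 CPM of Shmt1 (marked library 2 of day 270). For Slc7a11 that limit was 0.223 CPM in unmarked library 3 of day 270 and 0.206 CPM in unmarked library 3 of day 60. These limits stand for 3 reads and cover counting error only. All 42 genes passed the filter on low counts.

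**Figure D1:**
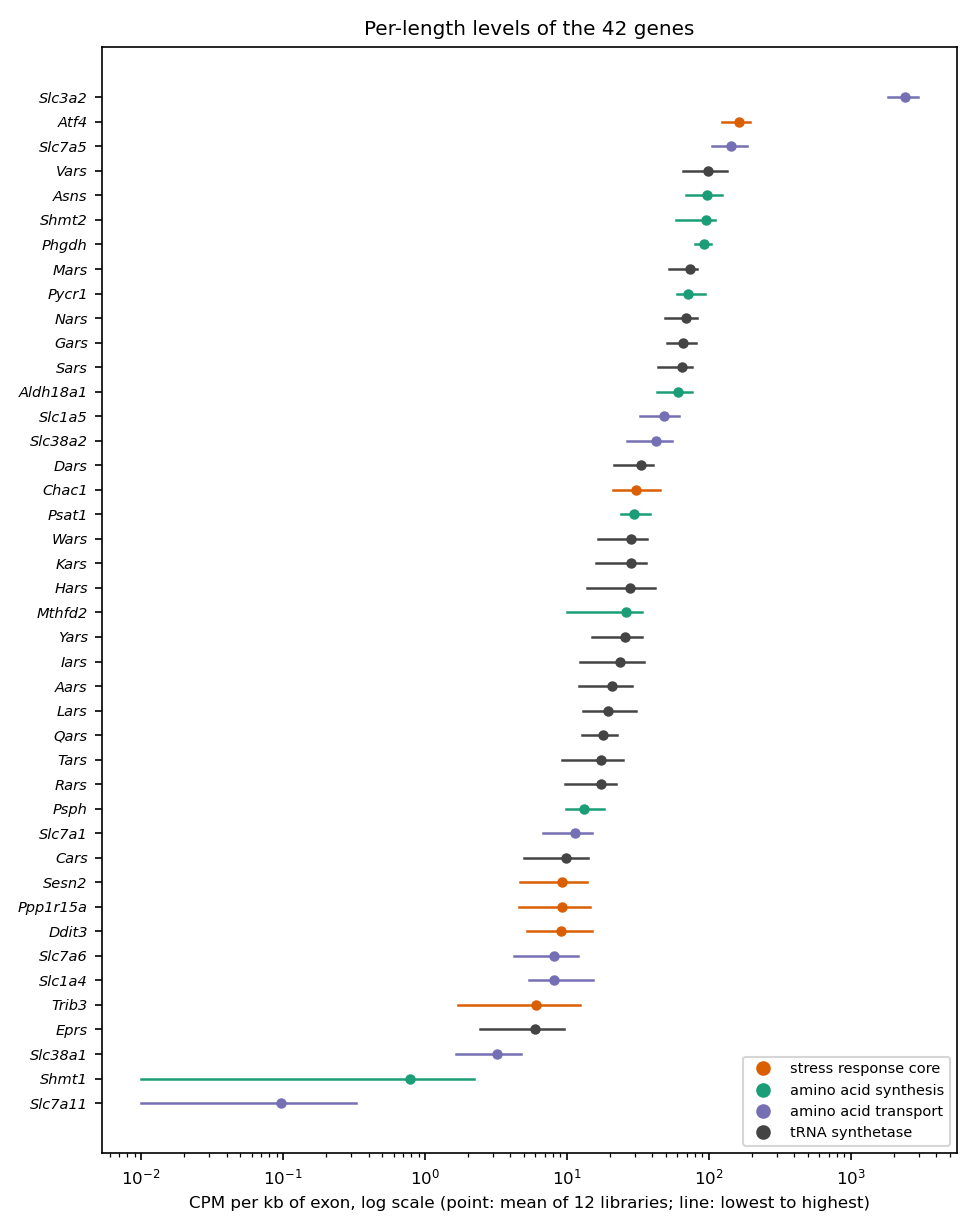
Mean level per kb of exon (log axis, CPM per kb) of each of the 42 genes over 12 libraries, with a line from the lowest to the highest library. Lines drawn to the lowest labelled tick belong to the genes with a library at 0 reads. Slc3a2 lies more than a log unit above every other gene, and Shmt1 and Slc7a11 lie below all others.

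Many genes of this set are known ATF4 targets, and ATF4 binds, as a dimer with C/EBP factors, to a short element whose core is written here as TGATGNAA. The window from 250 bases before to 50 after the start of each gene (RefSeq, GRCm38.p6) was searched for it on both strands. A window was at hand for 32 of the 42 genes, and 11 of the 32 (34.4%) held the core. Among all 27025 RefSeq genes with a window, whether or not expressed in these cells, 1219 did (4.51%). The 42 genes were picked by pathway, known ATF4 targets among them, so this contrast is no test. By role these were 2 of 6 stress response genes, 2 of 9 synthesis genes, 2 of 6 carriers and 5 of 11 synthetases. Atf4 itself had no match, nor had Slc3a2, Psat1, Phgdh or Aldh18a1. A match is a description of letters and not a bound site. Below are windows of genes whose levels are followed in the text, each read 5′ to 3′ on the strand of the gene with the core in capitals, in the forward or the reverse orientation:
Asns (chr6:7693210-7693272, minus strand): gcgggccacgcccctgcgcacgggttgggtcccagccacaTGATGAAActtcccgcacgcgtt
Pycr1 (chr11:120643804-120643891, minus strand): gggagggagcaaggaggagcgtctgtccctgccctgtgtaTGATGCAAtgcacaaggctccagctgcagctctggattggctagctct
Chac1 (chr2:119351009-119351096, plus strand): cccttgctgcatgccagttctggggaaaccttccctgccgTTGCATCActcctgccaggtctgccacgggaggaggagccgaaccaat
Slc7a11 (chr3:50443632-50443719, minus strand): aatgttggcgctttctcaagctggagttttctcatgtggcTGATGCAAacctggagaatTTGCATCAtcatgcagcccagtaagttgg
Aars (chr8:111033690-111033777, plus strand): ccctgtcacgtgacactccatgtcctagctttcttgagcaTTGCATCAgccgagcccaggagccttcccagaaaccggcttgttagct
Tars (chr15:11399659-11399713, minus strand): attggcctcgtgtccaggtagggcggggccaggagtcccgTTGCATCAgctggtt
Iars (chr13:49682126-49682155, plus strand): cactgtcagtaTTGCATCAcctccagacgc
Slc7a11 held 2 cores within this stretch, 1 in each orientation. The cores of Iars and Trib3 lay after the start of the gene, by 11 and 18 bases to their centre. So did that of Yars, by 7 bases, and a second core of Aars outside the stretch shown, by 13 bases. That of Slc1a4 was centred on the start.

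The first question was whether marked plasma cells differed from unmarked ones in these genes. Averaged over the days, 1 of the 42 genes was called, Aldh18a1, which was lower in marked cells; among all 12704 genes tested 1.84% were called (limma, Benjamini-Hochberg adjusted p under 0.05). Most of the other genes had small negative fold changes that did not pass the test. Of the 42, 34 had a negative log2 fold change, as had 70.4% of all genes, and the median was -0.25 against -0.18 over all genes. With TMM scaling 30 of 42 were negative and the median was -0.13, against -0.06 over all genes. By total reads all 18 synthetases lay below 0, as did 4 of 9 synthesis genes, 7 of 9 carriers and 5 of 6 core genes. Fewer lay below the median of all genes: 16 of 18 synthetases, 4 of 9 synthesis genes, 5 of 9 carriers and 2 of 6 core genes. At an unadjusted p under 0.05 there were 9 genes, all with negative fold changes, among 16.9% of all genes. DESeq2 called 5 of the 42, Aldh18a1, Slc1a5 and Iars lower and Pycr1 and Slc3a2 higher, beside 4.28% of all genes, and edgeR called none. Within a day no gene of the 42 was called by limma. At day 270 the smallest adjusted p was 0.0843, beside 0.48% of all genes called, and at day 60 it was 0.431, beside 0.189% called. At an unadjusted p under 0.05 there were 7 genes at day 270 and 6 at day 60, all with negative fold changes. Over all genes those shares were 14.0% at day 270 and 6.45% at day 60. Negative fold changes were found in 32 of the 42 genes in each day, beside 69.2% of all genes at day 270 and 63.9% at day 60. At day 270 that count depended on marked library 2, as given below. DESeq2 called 2 of the 42 at day 270 (Aldh18a1 lower and Pycr1 higher; 2.02% of all genes) and none at day 60 (0.937%), and edgeR called none in either day.

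**Figure D2:**
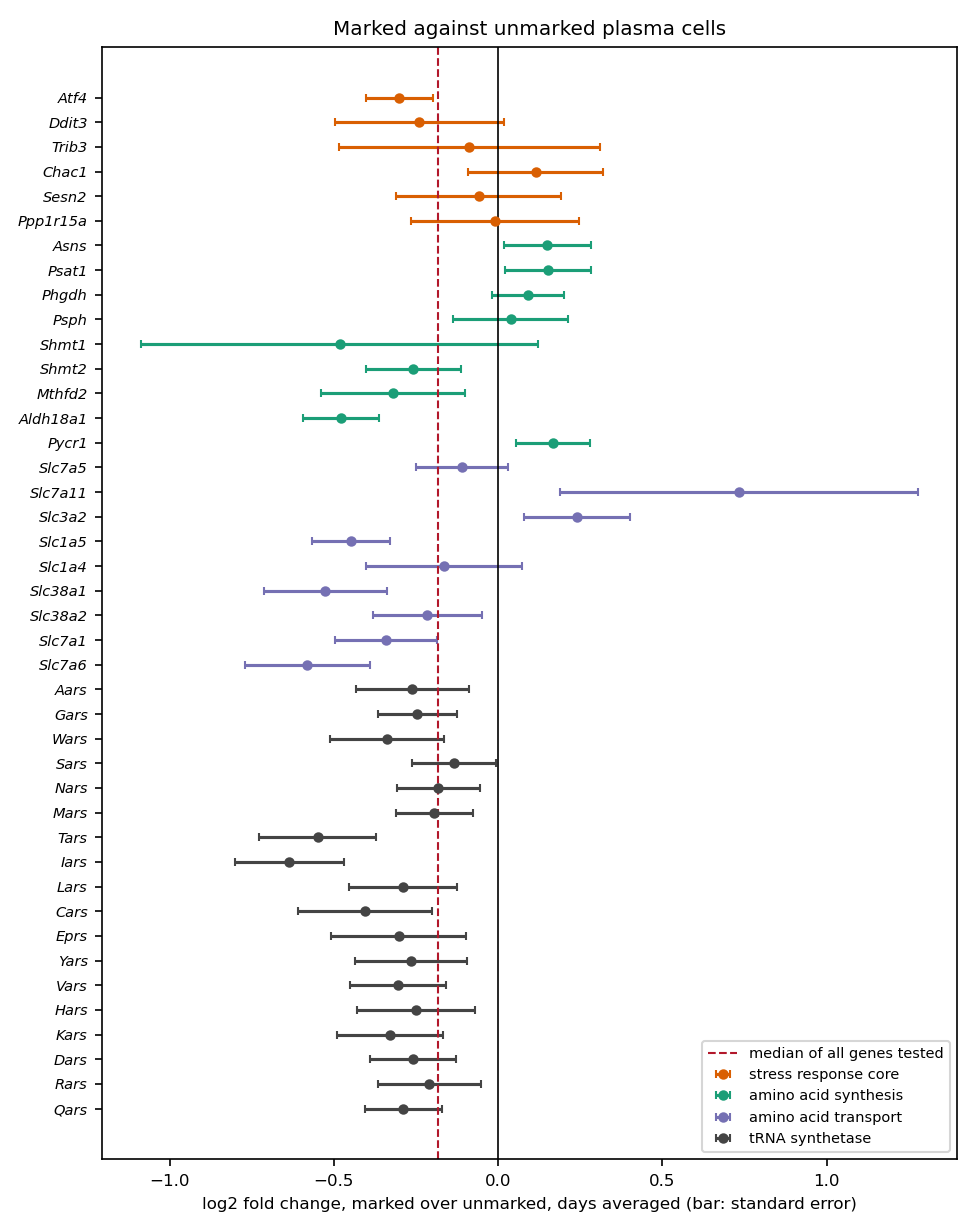
Log2 fold change of marked over unmarked cells, averaged over both days, for each of the 42 genes (point) with its standard error from limma (bar), by role. The solid line is 0 and the dashed line the median of all genes tested (-0.18). The 18 synthetases all lie left of 0, and Asns, Psat1, Phgdh, Psph and Pycr1 lie right of it.

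In the stress response core, Atf4 was the steadiest gene and had the lowest spread within groups of all 42, a mean coefficient of variation of 6.65%. Atf4 (ENSMUSG00000042406, chr15:80255184-80257541) had 374, 293 and 378 CPM in marked libraries of day 270, against 463, 424 and 405 CPM in unmarked ones. At day 60 it had 326, 345 and 352 CPM in marked libraries, against 409, 425 and 417 CPM in unmarked ones. All 6 marked libraries lay below all 6 unmarked libraries, as was so for 1.85% of all genes. The log2 fold change was -0.30 ± 0.10 (SE), with an adjusted p of 0.161 from limma, and Atf4 was not called under any alternative. With TMM scaling the marked and unmarked libraries did not overlap within either day, as was so for 2.21% of all genes in that direction, but did when the days were pooled. In CPM the genes lower without overlap within each day were Atf4, Slc1a5, Tars and Iars, beside 2.96% of all genes.

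The feedback genes overlapped between marked and unmarked cells, apart from Ddit3 at day 60. Ddit3, which encodes the pro-apoptotic factor CHOP, had 16.4, 14.4 and 25.6 CPM in marked libraries of day 270 and 18.8, 18.2 and 11.8 CPM in unmarked ones. At day 60 Ddit3 had 9.22, 8.92 and 13.2 CPM in marked libraries, against 22.1, 13.3 and 15.7 CPM in unmarked ones. The groups overlapped at day 270 and not at day 60, when 11.3% of all genes were lower without overlap. The gene Ddit3 (chr10:127290774-127296288) overlaps Mars (chr10:127296221-127311786) on the other strand, in a short stretch at their ends only. Mars averaged 73.9 CPM per kb against 9.13 CPM per kb for Ddit3. No source used here states that reads were counted by strand, so reads in the shared stretch cannot be assigned to either gene. A second annotated entry of Ddit3 overlaps the one used, on the same strand, and is not among the genes given. Its effect on the Ddit3 values was not tested. Trib3, a pseudokinase that restrains ATF4, had 26.4, 3.62 and 11.8 CPM in marked libraries of day 270 and 16.5, 17.1 and 9.46 CPM in unmarked ones. Its 6 values at day 60 were 14.7, 6.42 and 17.7 CPM in marked and 12.7, 9.27 and 9.29 CPM in unmarked libraries. Both pairs of Trib3 groups overlapped. Chac1, which breaks down glutathione, had 73.8, 34.5 and 57.3 CPM in marked libraries of day 270 and 55.8, 64.1 and 39.3 CPM in unmarked ones. At day 60 Chac1 had 65.8, 38.1 and 43.9 CPM in marked libraries, against 45.4, 45.2 and 34.5 CPM in unmarked ones. The averaged log2 fold changes were 0.11 ± 0.20 for Chac1, -0.09 ± 0.40 for Trib3 and -0.24 ± 0.26 for Ddit3 (SE). Sesn2, a stress-induced inhibitor of mTORC1 signalling, and Ppp1r15a, the phosphatase subunit that reverses eIF2alpha phosphorylation, were at -0.06 ± 0.25 and -0.01 ± 0.26. Sesn2 had 16.3 to 44.3 CPM in marked and 20.9 to 48.3 CPM in unmarked libraries, and Ppp1r15a 20.1 to 42.4 CPM in marked and 13.4 to 40.3 CPM in unmarked ones. The signs of Trib3, Sesn2 and Ppp1r15a turned positive with TMM scaling, edgeR and DESeq2. The median of the 6 core genes was -0.07, and 0.05 with TMM scaling.

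Proline synthesis held the called gene. Aldh18a1 (ENSMUSG00000025007, chr19:40550257-40588463) encodes the enzyme that turns glutamate into the precursor of proline and ornithine. It had 203, 176 and 196 CPM in marked libraries of day 270, against 307, 304 and 292 CPM in unmarked ones. At day 60 Aldh18a1 had 186, 201 and 276 CPM in marked libraries, against 288, 247 and 274 CPM in unmarked ones. The groups were apart at day 270, while marked library 3 of day 60 lay among the unmarked ones. At day 270, 7 of the 42 genes were lower without overlap in CPM. The matching share of all genes is not given here, so this separation is not read as particular to Aldh18a1. The averaged log2 fold change was -0.48 ± 0.12 (95% interval -0.72 to -0.24), with an adjusted p of 0.0393 from limma. Aldh18a1 was lower in 5 of 6 pairs of libraries that share a specimen number. Shares of all genes for such counts of pairs are not given here or below, so these counts are not read as particular to a gene. The call was narrow: with the replicate block by specimen the limma adjusted p was 0.0677, with TMM scaling 0.0510, with edgeR 0.0769 and with DESeq2 0.0104, and over all alternatives it ranged from 0.0104 to 0.122. It was no longer called when marked library 1 or 2 of day 60 (0.108 and 0.114) or any 1 unmarked library (0.0712 to 0.122) was left out.

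Pycr1 (ENSMUSG00000025140, chr11:120635712-120643769), which makes proline in the final step, in mitochondria, had a fold change of the opposite sign. It averaged 332 ± 50.7 CPM in marked and 281 ± 14.2 CPM in unmarked cells at day 270 (SD, n = 3 each). At day 60 it averaged 267 ± 36.1 CPM in marked and 247 ± 15.9 CPM in unmarked cells (SD, n = 3 each). Its log2 fold change was 0.17 ± 0.11, with an adjusted p of 0.481 from limma and of 0.00399 from DESeq2, which alone called it higher. Pycr1 was picked for closer description after its values were seen. With TMM scaling it was higher in 6 of 6 specimen pairs and did not overlap within either day, as was so in that direction for 1.65% of all genes.

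The asparagine and serine enzymes had positive fold changes that did not pass the test. Asns (ENSMUSG00000029752, chr6:7675169-7693254) had 322, 189 and 338 CPM in marked libraries of day 270, against 259, 247 and 248 CPM in unmarked ones. At day 60 it had 283, 250 and 292 CPM in marked libraries, against 242, 259 and 230 CPM in unmarked ones. In each day 1 marked library, numbered 2 in both but from separate specimens, lay among or below the unmarked ones, and the groups overlapped. These libraries also had the largest shares of reads on Rn18s-rs5, 16.1% at day 270 and 3.17% at day 60, and a link was not tested. Psat1, the aminotransferase of serine synthesis, had 140, 103 and 162 CPM in marked libraries of day 270 and 127, 104 and 134 CPM in unmarked ones. Its day 60 values were 134, 127 and 140 CPM in marked and 114, 128 and 114 CPM in unmarked libraries. The lowest marked value of Psat1 was also that of library 2 of its day, in each day, and the groups overlapped. Phgdh, the entry enzyme of serine synthesis, had 258, 217 and 208 CPM in marked libraries of day 270 and 214, 232 and 199 CPM in unmarked ones. At day 60 Phgdh had 255, 218 and 257 CPM in marked libraries, against 240, 237 and 203 CPM in unmarked ones. The averaged log2 fold changes were 0.15 ± 0.13 for Asns, 0.15 ± 0.13 for Psat1 and 0.09 ± 0.11 for Phgdh, with adjusted p of 0.605, 0.587 and 0.713 from limma. Psph, the phosphatase that completes serine synthesis, was at 0.04 ± 0.18. With TMM scaling Asns and Psat1 were higher in 6 of 6 specimen pairs, and Asns, Psat1 and Phgdh did not overlap at day 60, as was so for 7.75% of all genes in that direction. The mitochondrial folate enzymes lay below 0, Shmt2, which splits serine into glycine and a folate-bound carbon, at -0.26 ± 0.14 and Mthfd2, which passes that carbon on, at -0.32 ± 0.22. Shmt2 had 181 to 342 CPM in marked and 281 to 344 CPM in unmarked libraries. Mthfd2 had 35.0 to 116 CPM in marked and 84.2 to 118 CPM in unmarked libraries, so that for both enzymes the range of marked cells reached further down. The lowest value of Mthfd2 was that of marked library 2 of day 270. Without that library its averaged log2 fold change was -0.07, and without marked libraries 2 and 3 of day 270 it was 0.03. Shmt1 had 0 to 8.55 CPM in marked and 1.12 to 6.26 CPM in unmarked libraries. The spans of Shmt1 and Smcr8, and those of Psph and Cct6a, overlap on opposite strands. How much of their exons is shared was not measured. As for Ddit3 and Mars, reads in a shared stretch cannot be assigned to either gene. The same holds for the pairs Shmt2 and Ndufa4l2, Ppp1r15a and Tulp2, Wars and Wdr25, Yars and C77080, and Hars and Hars2. Aars overlaps Exosc6 on the same strand, and Exosc6 is not among the genes given.

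**Figure D3:**
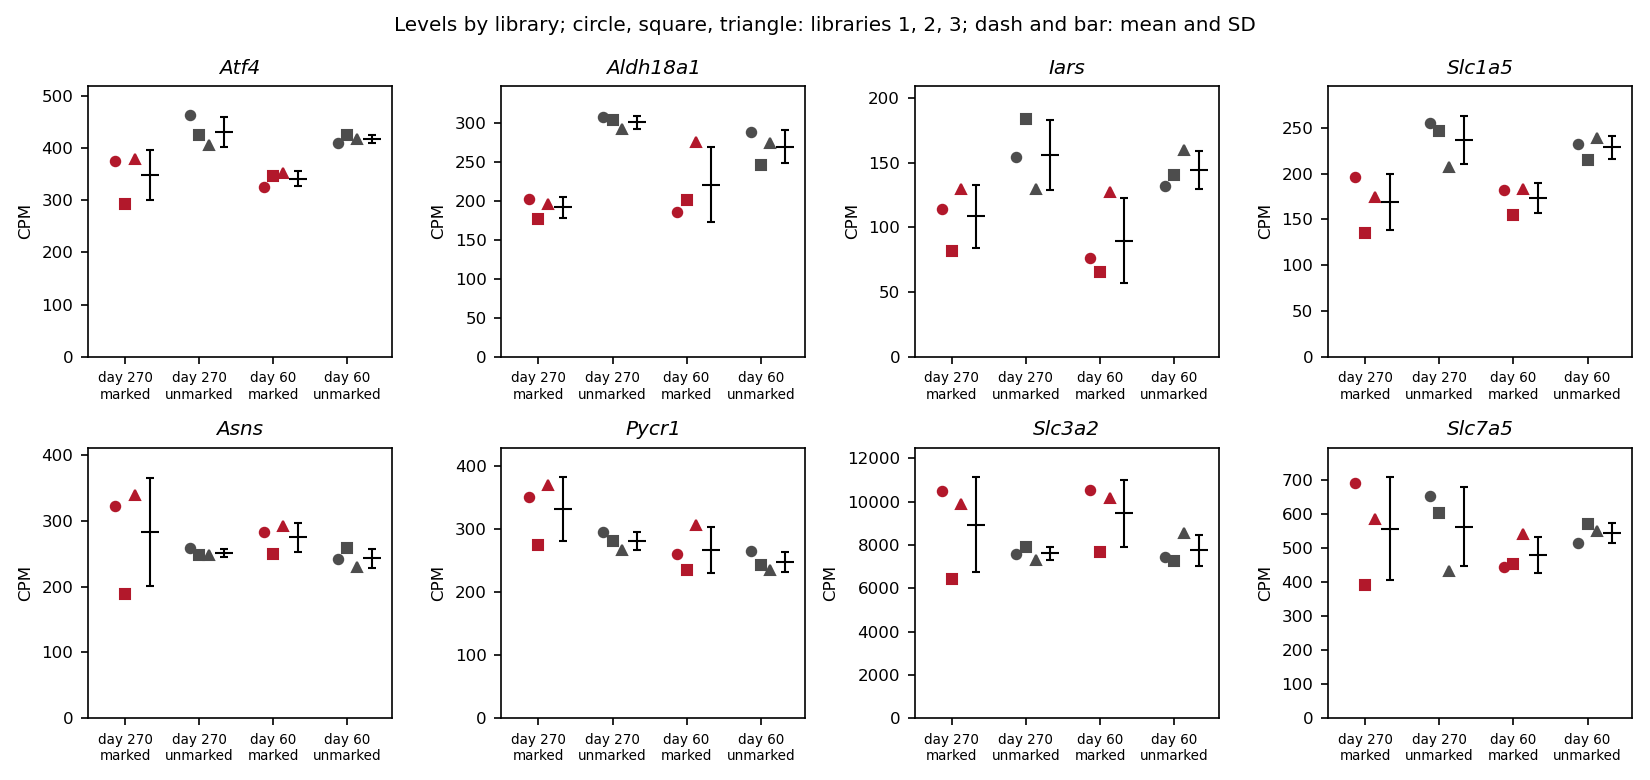
Level (CPM) of 8 of the genes in each library: marked libraries in red, unmarked ones in grey, with the group mean and SD (n = 3) beside them. Atf4, Slc1a5 and Iars show all marked libraries below all unmarked ones, Aldh18a1 is apart at day 270, and Asns, Pycr1, Slc3a2 and Slc7a5 overlap in CPM in both days.

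Among the carriers, the heavy chain and its partners had fold changes of either sign, none of them called by limma. Slc3a2 (ENSMUSG00000010095, chr19:8706882-8723369) had 10499, 6439 and 9870 CPM in marked libraries of day 270, against 7587, 7901 and 7320 CPM in unmarked ones. At day 60 Slc3a2 had 10524, 7654 and 10171 CPM in marked libraries, against 7443, 7238 and 8559 CPM in unmarked ones. In each day marked libraries 1 and 3 were above all unmarked libraries, and marked library 2 lay with or below the unmarked ones. The averaged log2 fold change was 0.24 ± 0.16, with an adjusted p of 0.480 from limma and of 0.00176 from DESeq2, which alone called it higher. With TMM scaling Slc3a2 was higher in 6 of 6 specimen pairs and did not overlap within either day, as was so for Pycr1. Slc7a5 had 689, 392 and 585 CPM in marked libraries of day 270, against 651, 603 and 431 CPM in unmarked ones. At day 60 it had 444, 452 and 541 CPM in marked libraries and 513, 569 and 549 CPM in unmarked ones. Its groups overlapped in both days and its log2 fold change was -0.11 ± 0.14, which turned positive with TMM scaling, edgeR and DESeq2. Slc7a11 had 4.58, 2.42 and 1.51 CPM in marked libraries of day 270 and 1.66, 1.06 and 0 CPM in unmarked ones. At day 60 it had 0.728, 0.595 and 0.626 CPM in marked libraries and 0.263, 2.83 and 0 CPM in unmarked ones, and its fold change of 0.73 ± 0.54 rests on these few reads.

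The glutamine and neutral amino acid carriers had negative fold changes, none of them called by limma with all 12 libraries. Slc1a5 (chr7:16781340-16798274) takes up glutamine and other neutral amino acids. It had 135 to 196 CPM in the 6 marked libraries and 207 to 255 CPM in the 6 unmarked ones. That is without overlap, as was so for 1.85% of all genes. With TMM scaling Slc1a5 overlapped at day 60 and over both days. It was lower in 6 of 6 specimen pairs, at a log2 fold change of -0.45 ± 0.12. The limma adjusted p was 0.0626, against 0.0980 with TMM scaling and 0.0932 with the replicate block by specimen. From edgeR the adjusted p was 0.137 and from DESeq2 0.0324. Slc7a6, a partner of Slc3a2 for cationic and neutral amino acids, was at -0.58 ± 0.19, and the sodium-coupled Slc38a1 at -0.53 ± 0.19, with adjusted p of 0.142 and 0.174 from limma. The arginine and lysine carrier Slc7a1 was at -0.34 ± 0.16, and Slc38a2, a glutamine and alanine carrier, at -0.22 ± 0.17. Slc1a4, which carries alanine and serine, was at -0.17 ± 0.24 and turned positive with edgeR and DESeq2. In CPM, Slc7a6 had 19.2 to 45.6 in marked and 37.9 to 55.0 in unmarked libraries, and Slc38a1 had 28.6 to 81.8 in marked and 50.1 to 75.7 in unmarked ones. Slc7a1 had 78.6 to 157 CPM in marked and 121 to 172 CPM in unmarked libraries. The marked and unmarked ranges of these carriers overlapped. Slc1a5 was singled out after its values were seen.

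The 18 cytosolic synthetases, which load amino acids onto their tRNAs, shared a negative sign. The phenylalanine synthetase is not among them and is counted in a list further below. Their averaged log2 fold changes ran between -0.64 (Iars) and -0.13 (Sars) with a median of -0.28, and 16 of 18 lay below the median of all genes. All 18 stayed negative with TMM scaling and with edgeR, and 17 with DESeq2, where Sars was positive. They stayed negative without marked library 2 of day 270 and without marked library 1 of day 60. None was called by limma on CPM with all 12 libraries. Summed, the 18 genes gave 3044, 2197 and 3505 CPM in marked libraries of day 270, against 3574, 3900 and 3126 CPM in unmarked ones. At day 60 they summed to 2278, 2707 and 3247 CPM in marked libraries and to 3218, 3122 and 3290 CPM in unmarked ones. In CPM the sums overlapped in both days. With TMM scaling they were apart within each day, lower in marked libraries. Pooled over the days, the TMM-scaled sums overlapped, with 2655 to 3097 in marked and 3093 to 3384 in unmarked libraries. The sums carry no test. Within days, 16 of 18 were negative at day 270 and 18 of 18 at day 60, and with TMM scaling 15 at day 270 and 16 at day 60.

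Iars, the isoleucyl-tRNA synthetase (ENSMUSG00000037851, chr13:49682100-49734267), lay farthest from 0. It had 65.4 to 129.3 CPM in the 6 marked libraries and 130 to 184 CPM in the 6 unmarked ones. The populations were apart by a small gap, as was so in that direction for 1.85% of all genes. Iars was lower in 6 of 6 specimen pairs, and the share of all genes with that count is not given here. Its log2 fold change was -0.64 ± 0.17 (95% interval -0.98 to -0.29) and its limma adjusted p was 0.0590. It was called lower with TMM scaling (limma adjusted p 0.0335) and with DESeq2 (0.00847), and not with edgeR (0.0549); over the alternatives the adjusted p ran from 0.00847 to 0.178. It was also called when marked library 3 of day 270 or of day 60 was left out. The threonyl enzyme Tars was at -0.55 ± 0.18, lower in 6 of 6 pairs, with an adjusted p of 0.138. The windows of Iars and Tars held the TGATGNAA core shown above, as did those of Asns and Pycr1, which had positive fold changes. Tars had 54.8 to 107 CPM in marked and 105 to 146 CPM in unmarked libraries, and was apart within each day but not over both. Iars and Tars were singled out after their values were seen.

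The other synthetases overlapped between the populations over both days. Qars, with an unadjusted p under 0.05 and an adjusted p of 0.228 from limma, was at -0.29 ± 0.12, and the cysteinyl enzyme Cars at -0.40 ± 0.20. The tryptophanyl enzyme Wars was at -0.34 ± 0.17 and lower in 6 of 6 specimen pairs, with 56.9 to 117 CPM in marked and 88.2 to 125 CPM in unmarked libraries. Vars, the highest of the 18 per kb, had 370 to 636 CPM in marked and 534 to 751 CPM in unmarked libraries, at -0.30 ± 0.15. The lysyl enzyme Kars (-0.33 ± 0.16), the bifunctional glutamyl and prolyl enzyme Eprs (-0.30 ± 0.20) and the leucyl enzyme Lars (-0.29 ± 0.16) were close to it. Nearer to 0 were the methionyl enzyme Mars (-0.19 ± 0.12), the asparaginyl enzyme Nars (-0.18 ± 0.13) and the seryl enzyme Sars (-0.13 ± 0.13). The remaining 6 (Aars, Gars, Yars, Hars, Dars and Rars) lay between -0.26 and -0.21.

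Ratios within a library do not depend on the scaling between libraries. Of 780 ratios between 2 of the 40 genes with reads in every library, 42 (5.38%) had marked and unmarked libraries fully apart. Over all pairs of the 9668 tested genes with reads in every library the share was 1.9%. Levels were not matched between these shares, and ratios that share a gene depend on each other. The ratios shown were picked after seeing them and carry no test. Slc3a2 took part in 11 of the 42, Iars in 10, and Asns and Pycr1 in 8 each. Pycr1 over Aldh18a1 was 1.73, 1.56 and 1.89 in marked libraries of day 270, against 0.961, 0.923 and 0.915 in unmarked ones. At day 60 this ratio was 1.40, 1.17 and 1.11 in marked libraries, against 0.920, 0.983 and 0.855 in unmarked ones. Every marked library lay above every unmarked one. Asns over Atf4 was 0.645 to 0.894 in marked and 0.551 to 0.611 in unmarked libraries. Slc3a2 over Slc7a5 was 15.2 to 23.7 in marked and 11.6 to 17.0 in unmarked libraries, which overlapped. Library 2 of day 270, the lowest library for many of these genes in CPM, lay with the other marked libraries in the first of these ratios and was the lowest marked one in the second.

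**Figure D4:**
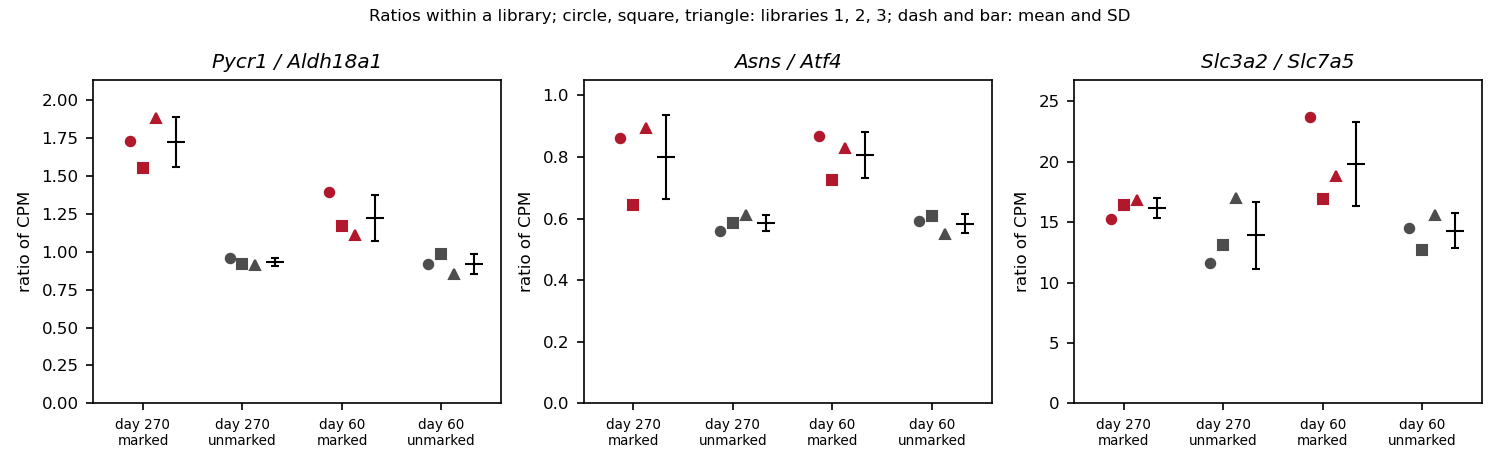
Ratio of CPM of 2 genes in each library (marked in red, unmarked in grey) with the group mean and SD (n = 3). The marked libraries lie above all unmarked ones for Pycr1 over Aldh18a1 (1.11 to 1.89 against 0.855 to 0.983) and for Asns over Atf4, and overlap them for Slc3a2 over Slc7a5.

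The second question was whether these genes differed between the later and the earlier day. None of the 42 was called in marked cells (0.0315% of all genes called by limma), in unmarked cells (0.0% called) or over both populations (0.189% called). Neither edgeR nor DESeq2 called any of the 42 there, and DESeq2 called 1.01% of all genes in marked cells, 0.0866% in unmarked cells and 1.12% over both. In marked cells 5 genes had an unadjusted limma p under 0.05, all higher at day 270, among 9.64% of all genes. These were Ddit3 (log2 fold change 0.79 ± 0.36), Slc38a1 (0.62 ± 0.27), Hars (0.63 ± 0.25), Rars (0.56 ± 0.22) and Qars (0.49 ± 0.17), with a smallest adjusted p of 0.369. Over both populations 4 did (Pycr1, Slc38a1, Rars and Qars), all higher at day 270, among 8.53% of all genes. In unmarked cells no gene reached an unadjusted p of 0.05, beside 2.98% of all genes. Qars, the glutaminyl-tRNA synthetase, had 127, 111 and 135 CPM in marked libraries of day 270, against 83.6, 88.6 and 92.2 CPM in those of day 60. In unmarked cells Qars had 149, 119 and 121 CPM at day 270 and 137, 125 and 118 CPM at day 60. The marked libraries of the 2 days did not overlap and the unmarked ones did. Qars was picked for this description after its values were seen. Ddit3 and Slc7a11 were also higher at day 270 without overlap in marked cells, as were 6.46% of all genes. Atf4 differed little between days, by 0.02 ± 0.15 in marked and 0.04 ± 0.15 in unmarked cells.

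The core of the stress response had positive fold changes between days. All 6 core genes were above 0 over both populations, with a median of 0.27 against 0.07 over all genes, and 5 of 6 with TMM scaling. In single genes this ran between 0.03 ± 0.10 for Atf4 and 0.40 ± 0.26 for Ppp1r15a, none of them called. Values at day 270 shifted when marked library 2 was left out. Without it, the median of the 42 genes between days in marked cells was 0.33, against 0.08 with it, and the median of all genes 0.19, against 0.02. Likewise the median in marked minus unmarked cells at day 270 was 0.02 without it, against -0.22 with it, and 23 of 42 genes were then positive, against 10. The matching values over all genes are not given here, so this shift is not read as particular to the 42.

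The difference of marked from unmarked cells was not shown to change between days for any of the 42 genes. The interaction called none of them (0.0% of all genes; smallest adjusted p 0.9999 from limma, none at an unadjusted p under 0.05, beside 3.05% of all genes, and none called by edgeR or by DESeq2, which called 0.0394% of all genes). For Aldh18a1 the difference was -0.65 ± 0.16 at day 270 and -0.31 ± 0.16 at day 60, and the interaction was -0.35 ± 0.23. Set against unmarked cells of day 60, marked cells of day 270 showed no gene of the 42 past the threshold either, beside 1.54% of all genes, with a smallest adjusted p of 0.162. At an unadjusted p under 0.05 there were 4 (Aldh18a1, Slc1a5, Dars and Pycr1), beside 14.4% of all genes. DESeq2 called 3 there (Aldh18a1 and Slc1a5 lower, Pycr1 higher; 4.51% of all genes). Pycr1 was at 0.41 ± 0.16 in this comparison, in which marking and day differ together, and Aldh18a1 at -0.49 ± 0.16.

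Other genes of the pathway were described as lists, and none of the genes in the 6 lists given here was called by limma in any comparison. The list of eIF2alpha kinases and phosphatase partners had 6 of 8 genes negative in marked minus unmarked cells, with a median of -0.33, beside -0.18 over all genes tested. The 5 subunits of eIF2B, the exchange factor that eIF2alpha phosphorylation blocks, had 4 negative and a median of -0.15. The mitochondrial synthetases had 14 of 17 negative with a median of -0.23, and without Lars2 13 of 16 with a median of -0.24. The 11 other amino acid carriers tested had 9 negative and a median of -0.23. The list of synthetase partners and phenylalanine synthetase had 4 of 5 genes negative and a median of -0.11. Of these 5 genes, 0 lay below the median of all genes. The 14 other transcription factors and targets had 9 negative and a median of -0.10.

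In the authors' deposited table for day 60 marked against unmarked cells, all 42 genes are listed and none has an FDR under 0.05. The smallest is that of Slc3a2 in the authors' deposited table, with a log2 fold change of 0.41 and an FDR of 0.161, followed by Iars with -0.59 and an FDR of 0.283. There 29 of the 42 are negative, with a median of -0.11 in the authors' deposited table.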

How the data were processed

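RNA was taken from sorted plasma cells with RNeasy Micro kits and made into TruSeq RNA libraries, per the labels' protocols. The build was GRCm38 and limma was used, per the submitters' processing notes. No source used here names the aligner, the counting tool or the use of strand. The authors deposited a table of counts, whole reads of 230 genes, which served as a check only. Per the file headers, the authors' comparison tables hold CPM for each library, log2 fold changes and a mean log2 level, and a p-value and FDR for each gene. Whole reads were recovered from the deposited CPM of 14219 genes: all 151342 low values came out whole to 0.05 of a read, and the 230 count table genes matched. The totals of 7449468 to 15943547 reads per library limit the precision of low genes.

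The 42 genes and all lists were chosen with earlier results of these data known. The filter (filterByExpr of edgeR, minimum count 10) kept 12704 genes. Values of log2(CPM + 0.5) were fitted with limma 3.58.1 (R 4.3.3, trended prior) with 1 coefficient for each of the 4 groups over 12 libraries, and p-values were adjusted by Benjamini-Hochberg over 12704 genes, with a threshold of 0.05. Fold changes are on the log2(CPM + 0.5) scale, which understates those of low genes. Alternatives were TMM scaling, pseudocounts of 0.1 and 2, no filter, a mean CPM of at least 1, edgeR 4.0.16 and DESeq2 1.42.0 on recovered reads, the compared libraries alone, a replicate block, and leaving out each library. Values are given in every library for genes called and for 10 genes named by rule (Atf4, Ddit3, Trib3, Chac1, Asns, Psat1, Phgdh, Slc7a5, Slc3a2 and Slc7a11). The wider pathway is given by counts and medians of 6 lists; 1 further list, with its calls, is not reported here. Genes picked after their values were seen are said to be.

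Marked and unmarked libraries of the same day share a specimen number in the labels, which pairs them. Their deviations from the group means had a median correlation of 0.06 (-0.01 to 0.11 over 6 pairs), against -0.02 between other specimens of the same day. Between days the replicate number marks no shared specimen. In 4 of 6 specimens the marked and unmarked libraries carry library numbers from separate runs of numbers, and for these specimens an effect of that number cannot be told apart from one of marking.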

Additional observations from a re-analysis of the deposited data

How the results depend on the processing

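Of the 42 genes, 1 was called in marked minus unmarked cells over both days. That count was 0 with edgeR, 0 with the replicate block by specimen, 0 when Jchain was left out of the totals and 0 without marked libraries 2 and 3 of day 270. It was 5 with DESeq2, and 1 with TMM scaling (Iars in place of Aldh18a1). Leaving out 1 library at a time gave 0 to 3. It was 0 without marked library 1 or 2 of day 60 or any unmarked library, and 3 without marked library 3 of day 270. At day 270 the count of 0 became 2 with DESeq2 and ran from 0 to 1 when 1 library was left out. For marked cells of day 270 against unmarked cells of day 60 it became 3 with DESeq2. The settings that leave out Jchain, or marked libraries 2 and 3 of day 270, were chosen after seeing the data. The replicate block changed the call of Aldh18a1 (limma adjusted p 0.0677) and no other call among the 42 genes. The cause of these changes was not tested. With TMM scaling the median log2 fold change of all genes was -0.06 in marked minus unmarked cells, against -0.18 by total reads, so that small fold changes, and signs near 0, depend on scaling. Depth limits Slc7a11 and Shmt1, which had 0 to 73 and 0 to 79 reads.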
